A study of Mus musculus with 2 samples.

Results

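Krüppel-like factors are zinc finger transcription factors that bind GC boxes and CACCC sequences through a conserved run of C2H2 fingers at the C-terminus. Several of them are known regulators of macrophage activation. The sites described here are ATAC-seq peaks of mouse bone marrow-derived macrophages that lay nearest to Klf2, Klf3, Klf4, Klf6, Klf7, Klf9, Klf10 or Klf13. A peak was taken when its summit, the position of highest coverage, had an end of 1 of these 8 protein-coding genes as the nearest RefSeq gene end, within 100 kb, on the mm10 build. This gave 42 of 37725 peaks in the R848 list and 35 of 77060 peaks in the untreated list, 77 of 114785 in all. The 8 genes were chosen by a readout of the same libraries, the number of peaks in each list near each gene. Their counts are therefore a description and support nothing by themselves.

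In ATAC-seq a transposase inserts adapters into open chromatin, and stretches rich in insertions become peaks. The R848 group was 1 library of wild-type (WT) macrophages given 100 ng/ml R848, a Toll-like receptor 7 agonist, for 2 h. The untreated group was 1 library of WT macrophages at 0 h. Both were grown from bone marrow with M-CSF at 20 ng/ml, and neither mouse strain nor the number of animals was given in the sources used here. With 1 library per group no test between conditions could be made. A site open in fewer cells and a site less open in each cell cannot be told apart in such bulk libraries.

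Each peak carries the authors' fold, which is its summit coverage over the local background of its own library. The number of tags at the summit was recovered from the deposited fold and p-value. The genome-wide background was 1.36 tags in the R848 library and 0.968 tags in the untreated library, a ratio of 1.40 that was used to scale tags. The smallest peak held 5 tags in the R848 list and 4 in the untreated list. Peaks of 1 list that overlapped no peak of the other are called R848-only or untreated-only, and the rest shared. Of the 10 macrophage marker genes examined, all 10 had a peak in the R848 list and 9 in the untreated list, Cd14 being the exception. Of all 21887 protein-coding genes, 13806 had a peak in the R848 list and 15209 in the untreated list, so these counts identify no cell type by themselves. Among markers of other cells a peak in the R848 list lay at 2 of 6 T and NK cell, 3 of 4 B cell, 4 of 5 neutrophil, 3 of 4 dendritic cell, 1 of 4 erythroid and megakaryocyte and 4 of 4 stromal genes. In the untreated list the counts in the same order were 3, 1, 4, 3, 2 and 4, and their part in the results was not tested.

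The sequence before the start of a gene is shown for the 6 members with a peak of at least 1 list over that start. In each of them this peak was a shared one. RefSeq promoter sequences (GRCm38.p6) were found for 7 of the 8 genes, and Klf10 was not among them. For Klf6, Klf2 and Klf3 a peak covered the annotated start in both lists, whereas for Klf4, Klf9 and Klf13 the R848 peak covered it and the untreated peak ended short of it. For Klf7 the shared peak lay upstream of the start in the table and covered it in neither list. Each run below is the 250 bases before the start, 5′ to 3′ on the gene's strand, and capitals mark CACCC and GGGCGG (the GC box) or their reverse complements.
Klf6: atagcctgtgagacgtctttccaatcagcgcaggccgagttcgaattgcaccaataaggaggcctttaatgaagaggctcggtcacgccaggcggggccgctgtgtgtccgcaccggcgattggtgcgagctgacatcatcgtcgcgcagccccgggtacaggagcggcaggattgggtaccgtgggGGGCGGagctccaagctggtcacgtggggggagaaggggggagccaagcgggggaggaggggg
Klf2: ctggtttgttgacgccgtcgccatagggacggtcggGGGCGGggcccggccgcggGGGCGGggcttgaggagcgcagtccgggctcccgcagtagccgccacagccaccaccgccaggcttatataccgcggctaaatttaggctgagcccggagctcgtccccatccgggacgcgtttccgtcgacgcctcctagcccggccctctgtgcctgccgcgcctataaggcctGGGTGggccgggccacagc
Klf3: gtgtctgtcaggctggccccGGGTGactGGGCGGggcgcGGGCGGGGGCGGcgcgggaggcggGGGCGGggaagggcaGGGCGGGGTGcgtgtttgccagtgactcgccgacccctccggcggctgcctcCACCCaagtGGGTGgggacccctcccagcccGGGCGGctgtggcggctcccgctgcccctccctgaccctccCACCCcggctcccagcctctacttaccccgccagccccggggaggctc
Klf4: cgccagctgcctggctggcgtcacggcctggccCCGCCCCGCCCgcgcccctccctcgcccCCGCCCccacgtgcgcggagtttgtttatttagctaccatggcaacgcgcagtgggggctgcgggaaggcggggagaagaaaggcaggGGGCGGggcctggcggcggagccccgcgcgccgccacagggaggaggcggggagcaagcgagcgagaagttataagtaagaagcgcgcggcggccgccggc
Klf9: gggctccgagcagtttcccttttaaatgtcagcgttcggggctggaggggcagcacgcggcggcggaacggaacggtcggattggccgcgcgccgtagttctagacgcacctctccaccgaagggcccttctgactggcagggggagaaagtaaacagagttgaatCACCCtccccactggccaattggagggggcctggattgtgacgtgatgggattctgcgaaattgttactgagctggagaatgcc
Klf13: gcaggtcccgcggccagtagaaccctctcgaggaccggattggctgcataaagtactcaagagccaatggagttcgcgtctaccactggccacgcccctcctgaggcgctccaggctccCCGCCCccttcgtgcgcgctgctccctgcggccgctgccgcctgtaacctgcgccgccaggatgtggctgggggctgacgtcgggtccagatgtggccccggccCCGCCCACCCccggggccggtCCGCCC

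These windows lie at chr13:5861239-5861488 (plus strand) for Klf6, chr8:72318812-72319061 (plus) for Klf2, chr5:64803271-64803520 (plus) for Klf3, chr4:55532476-55532725 (minus) for Klf4, chr19:23140976-23141225 (plus) for Klf9 and chr7:63938916-63939165 (minus) for Klf13. GC content was 64.8% for Klf6, 71.2% for Klf2, 78.4% for Klf3, 74.0% for Klf4, 59.6% for Klf9, 71.6% for Klf13 and 59.2% for Klf7, against a median of 55.6% over 21263 such windows of protein-coding genes. On either strand, GGGCGG was present in 6 of the 7 members' windows and in 42.6% of all windows, with 6 copies at Klf3, 4 at Klf4, 3 at Klf13, 2 at Klf2 and 1 each at Klf6 and Klf7. CACCC was present in 5 of 7, against 54.2% of all windows, with 5 copies at Klf3, 3 at Klf7 and 1 each at Klf2, Klf9 and Klf13. Some copies overlap one another, as in the joined capitals of Klf3, Klf4 and Klf13.

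Klf9 had no GC box. It was the one member with the AP-1 motif TGANTCA, which began 89 bases before the start and overlapped the CACCC at 84 bases, and 6.13% of all windows held that motif. Klf6 had 4 copies of CCAAT, Klf9 had 3 and Klf13 had 2, and 35.4% of all windows held at least 1. The motif TGACGNCA, the cAMP response element with 1 open position, was found at Klf4 alone, 235 bases before the start (3.33% of all windows). TATAAA (11.6% of all windows), the ETS core GGAAGT (20.4%), the NF-kB motif (7.91%) and the serum response CArG motif (1.39%) matched none of the 7 windows. A match is a description of the letters, and a missing match says nothing about a factor.

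Every one of the 8 genes had a shared peak, which 34.4% of all 21887 protein-coding genes had, and every one had a shared peak within 1 kb of a gene end, which 20.9% had. Away from the gene ends the lists mostly parted. Of the members' R848 peaks, 8 of 10 within 1 kb, 5 of 16 between 1 and 20 kb and 2 of 16 between 20 and 100 kb were shared. Over all genes these shares were 58.5%, 23.7% and 23.0%. Of the untreated peaks, 8 of 10, 5 of 10 and 2 of 15 were shared in the same distance classes, against 75.3%, 14.3% and 9.79% over all genes.

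In total 27 of the 42 R848 peaks (64.3%) were R848-only, against 69.0% of all R848 peaks. Untreated-only peaks made up 20 of 35 (57.1%), against 84.7% of all untreated peaks. Among all peaks with a gene end within 100 kb, as the members' have by rule, the shares were 66.9% and 79.8%. Shared peaks were thus 35.7% of the R848 list's members (exact binomial interval 21.6% to 52.0%, counting error only) and 42.9% of the untreated list's (26.3% to 60.6%). Each of the 8 genes had an R848-only peak, which 47.2% of all protein-coding genes did, and 7 of 8 had an untreated-only peak, which 56.9% did. R848-only peaks outnumbered untreated-only peaks at Klf6 and Klf3, were fewer at Klf7, and were equal in number at the other 5 genes. This order within single genes changed with the settings. At Klf3 the numbers became 1 and 1 when peaks went to the nearest transcription start. With lists of equal length the R848-only peaks also led at Klf2 (1 and 0), Klf4 (3 and 2), Klf9 (3 and 0) and Klf13 (3 and 0). That setting cut only the longer, untreated list, so untreated-only counts could not rise and R848-only counts could not fall. The Klf9 count of 3 includes a shared peak whose untreated partner was cut. At a q of 0.05 the R848-only peaks were fewer at Klf2 (0 and 1), Klf4 (1 and 2) and Klf10 (0 and 1). At Klf13 they led at that q (1 and 0). At a −log10 q cutoff of 5 Klf7 had 2 R848-only and 0 untreated-only peaks. Those 2 include the shared peak near its start, whose untreated partner, at a −log10 q of 4.54, fell under the cutoff. Klf6 held 11 of the 27 R848-only peaks; without it 16 R848-only and 15 untreated-only peaks remained at the other 7 genes.

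**Figure D1:**
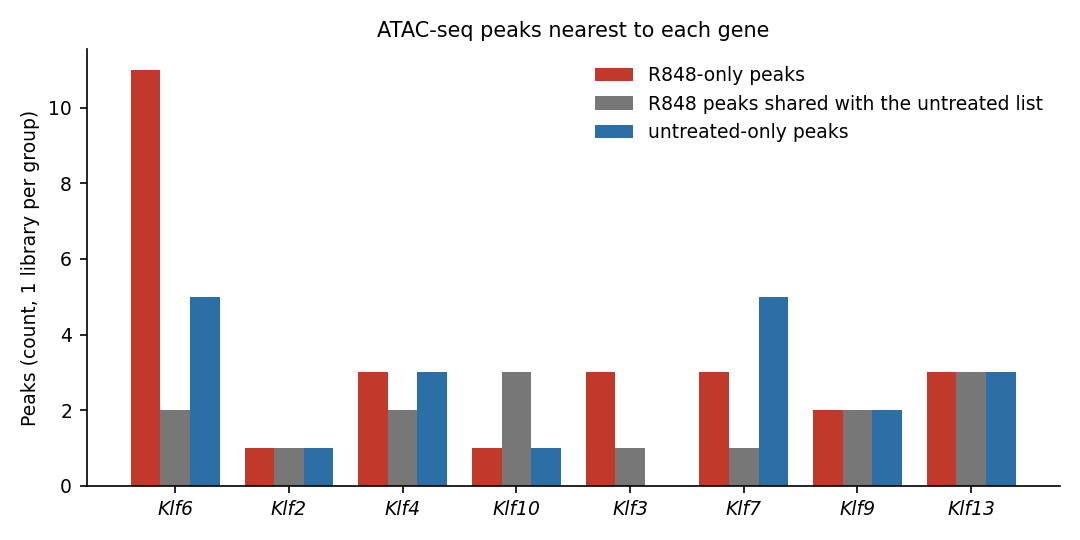
Number of peaks nearest to each of the 8 genes (vertical axis, count), as R848-only peaks, R848 peaks shared with the untreated list and untreated-only peaks; each bar is a count from 1 library. Klf6 had 11 R848-only, 2 shared and 5 untreated-only peaks, and no other gene had more than 3 R848-only peaks.

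Most of the peaks found in 1 list were weak. The 27 R848-only peaks had a median of 9 summit tags and a range of 6 to 20, and 14 of them (51.9%) had a q above 0.05. Over all R848-only peaks the median was 7 tags and 59.1% had a q above 0.05. The 20 untreated-only peaks had a median of 6 tags and a range of 5 to 20, and 6 (30.0%) had a q above 0.05. Over all untreated-only peaks the median was 7 tags and the share 40.4%. The 15 shared peaks were stronger, with a median of 23 tags in the R848 list and 11 in the untreated list, against 11 and 9 over all shared peaks. Tags at a site without a peak were not measured, so a missing peak gives no level for the other library.

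Klf6 encodes a factor that is induced early after many stimuli and, as background, promotes inflammatory gene expression in macrophages. The gene spans 5861489 to 5870393 on the plus strand of chromosome 13, with no competing protein-coding gene end in range. Under the nearest-end rule it drew peaks from 209 kb, against a median of 46.4 kb per gene. Its 11 R848-only peaks came to 5.27 per 100 kb of this territory and its 5 untreated-only peaks to 2.39. Over all protein-coding genes the densities were 1.14 and 2.25. Klf3 had a similar R848-only density, 4.91 from 3 peaks, with an untreated-only density of 0. At least 11 R848-only peaks were found at 10 genes (0.0457%), and at 9 of the 3425 genes with a territory of at least 150 kb (0.263%), where the median was 2. Since the genes were chosen by such counts, this rank is a description alone.

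The R848-only peaks of Klf6 lay mostly on its upstream side. Upstream of the gene were 9 of the 11, spread from 5769602 to 5846007 with summits 15.6 to 91.8 kb from the start, and 2 lay within 5 kb downstream of its far end. Upstream untreated-only peaks numbered 2, each with 6 tags, and 3 lay downstream. None of these peaks was inside the gene.

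The strongest of the upstream sites was the middle of 3 R848-only peaks packed into 1925 bp (5802939 to 5804863). Its peak at 5803544 to 5804034, 57651 bp before the start, had 20 tags and a fold of 6.48, and 1.69% of all R848-only peaks had a fold at least as high. The flanking peaks held 9 and 11 tags, and the one with 9 had a −log10 q of 1.17, so its q was above 0.05. The 3 summits lay 118, 683 and 1418 bp from an end of the lncRNA gene Gm35413. No untreated peak lay closer to the 3 than 6172 bp. A further peak at 5837368 to 5837785, 23949 bp before the start, held 14 tags with a fold of 6.36. These were the upstream R848-only peaks with a −log10 q above 5, at 9.57 for the 20-tag peak and 7.12 for the other.

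The other 5 upstream R848-only peaks were more widely spaced, each at least 4395 bp from the next upstream R848-only summit. Their summits lay 91804, 87409, 75795, 32808 and 15589 bp before the start. Their tags, in that order, were 7, 8, 11, 9 and 7, and those with 7 tags had a −log10 q of 1.17, a q above 0.05. Successive upstream summits were 735 to 24108 bp apart. Downstream, the R848-only peaks held 10 tags (1280 bp past the gene end) and 8 tags (4809 bp past it), and the second lay 138 bp from an untreated peak and became shared when a gap of 500 bp was allowed.

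The untreated library had its own sites at Klf6. A peak at 5926694 to 5926917, 56440 bp downstream and inside the lncRNA gene Gm46401, held 12 tags with a fold of 6.60. Another at 5884253 to 5885412, 14676 bp downstream and 1160 bp wide, also held 12 tags, with a fold of 5.91. The 3 remaining untreated-only peaks held 5 or 6 tags.

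**Figure D2:**
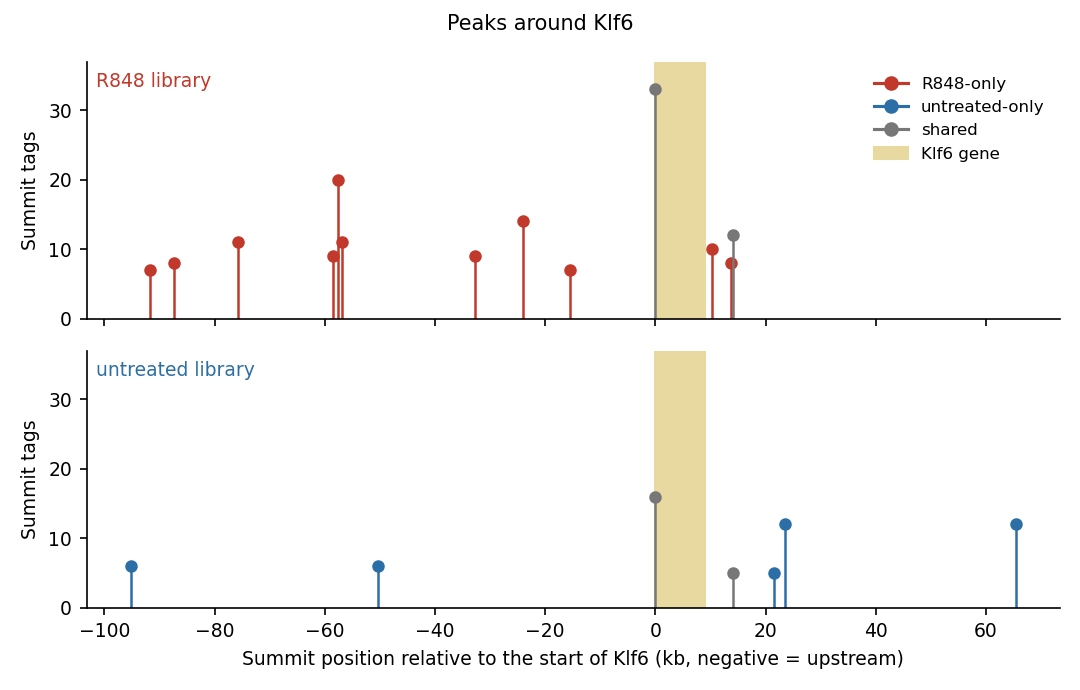
Summit tags (vertical axis, not scaled for depth) of every peak assigned to Klf6, by summit position from the start of the gene (horizontal axis, kb, negative upstream), in the R848 library (top) and the untreated library (bottom). Upstream stems are R848-only in 9 cases and untreated-only in 2, and the tallest stem in both panels, 33 and 16 tags, is the shared peak at the start.

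How many sites count for Klf6 depends on the assignment. With gene ends within 20 kb it had 3 R848-only and 2 untreated-only peaks. When genes of every biotype competed for a peak, 2 R848-only peaks remained nearest to Klf6, because 6 were nearer to the lncRNA gene Gm35413, 2 to Gm35464 and 1 to 1700016G22Rik, all upstream. At a q of 0.05 the numbers were 8 and 4, the 8 including the shared downstream peak, whose untreated partner failed that cutoff. At a −log10 q of at least 5 in both lists the numbers were 2 and 2. Which gene these sites act on was not measured.

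The shared peak over the Klf6 start spanned 5860966 to 5861855 in the R848 list and 5861123 to 5861513 in the untreated list. It held 33 tags in R848 and 16 in untreated cells, with folds of 7.05 and 7.33. Scaled by background the tag ratio was 1.47 (exact interval 0.786 to 2.86), so the tags and the folds point opposite ways. The fold is taken over the local background, which was 3.82 tags here in R848 and 1.32 in untreated cells. The tag ratio is scaled by the genome-wide background instead. The tag interval includes 1, and no error was computed for the folds. The other shared Klf6 peak, about 5.2 kb downstream, held 12 tags in R848 and 5 in untreated cells.

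Klf2 and Klf4 encode factors that restrain inflammatory activation of myeloid cells (Klf2) and favour monocyte differentiation and alternative activation (Klf4). Klf2 (chromosome 8, 72319062 to 72321654) had the fewest peaks of the 8 genes, with 2 in each list. Its shared peak over the start (72318722 to 72319192 in R848, 72318715 to 72319201 in untreated cells) held 29 and 14 tags, with folds of 8.29 and 6.20. The tag ratio was 1.48 (0.755 to 3.02). An R848-only peak of 10 tags lay 965 bp past the other gene end (72322444 to 72322798, fold 2.67), and an untreated-only peak of 6 tags lay 9183 bp past it (72330776 to 72331014, fold 3.56).

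Klf4 (chromosome 4, 55527137 to 55532475, minus strand) had 5 peaks in each list, 2 of them shared. The peak at its start held 14 tags in R848 (55532345 to 55533028, fold 5.00) and 7 in untreated cells (55532545 to 55533059, fold 3.54), a tag ratio of 1.42 (0.538 to 4.17). These summits also lie within the lncRNA gene Gm12506, so the peak cannot be given to either gene alone. Inside Klf4, the other shared peak held 9 and 7 tags. The strongest R848-only peak lay 91018 bp upstream (55623398 to 55623649) with 9 tags and a fold of 4.17, and the strongest untreated-only peak lay 57827 bp upstream (55590230 to 55590462) with 9 tags and a fold of 5.08. The other 2 R848-only peaks held 6 tags each, about 12 to 13 kb downstream, and the other untreated-only peaks held 8 and 5 tags.

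Klf10 encodes a factor first described as an early gene induced by TGF-β. The gene lies on chromosome 15 from 38291464 to 38300711, and 3 of its 4 peaks in each list were shared. The shared peak inside the gene, 1522 bp from its upper end, held 33 tags in R848 (38298965 to 38299585, fold 6.18) and 10 in untreated cells (38299002 to 38299298, fold 4.10). Its tag ratio of 2.35 (1.13 to 5.35) was the highest of the 15 shared pairs and the only one whose interval lay above 1 on the background scale. The intervals were not adjusted for looking at 15 pairs or for picking the highest. The summit also lies within the lncRNA gene Gm35248, whose end is nearer (442 bp in the R848 list), so with genes of every biotype this pair is not assigned to Klf10. A ratio of at least 2 was reached by 7.60% of all 11814 shared pairs.

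At the upper end of Klf10 itself, the tag ratio was smaller. That peak held 26 tags in R848 (38300649 to 38301080, fold 4.89) and 14 in untreated cells (38300580 to 38301260, fold 5.28), so its fold was lower and its tag ratio, 1.32 (0.666 to 2.74), higher. The distal shared peak, 84 kb above the gene, held 22 tags in R848 (38384437 to 38384977, fold 8.46) and 9 in untreated cells (38384719 to 38384949, fold 5.08), a ratio of 1.74 (0.771 to 4.30). It is nearer to the lncRNA gene Gm41307 when genes of every biotype are used.

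Klf10 also had the strongest peak of the 8 genes that 1 list held alone. This untreated-only peak, 7845 bp above the gene inside the lncRNA gene Gm35248 (38308422 to 38308691), held 20 tags with a fold of 10.1, and the nearest R848 peak was 7341 bp away. Of all untreated-only peaks 0.135% had a fold at least as high. The single R848-only peak of Klf10 was weak, with 7 tags, 73359 bp above the gene (38374021 to 38374220, fold 3.39).

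**Figure D3:**
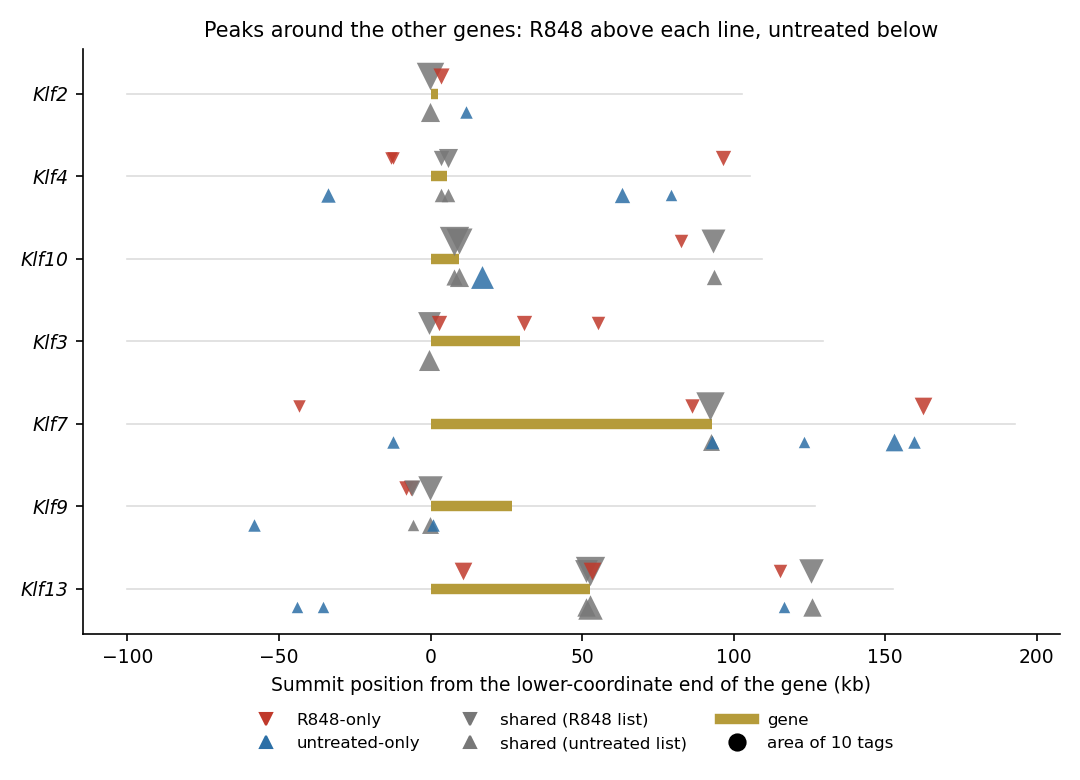
Peaks assigned to the 7 genes other than Klf6, by summit position from the lower-coordinate end of each gene (horizontal axis, kb); R848 peaks point down from above each line, untreated peaks point up from below, the area follows the summit tags, and grey lines reach 100 kb past each gene. Each gene has a shared pair within 1 kb of a gene end, and the largest symbol that is not shared is the 20-tag untreated-only peak of Klf10.

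Klf3 encodes a repressor that recruits CtBP. The gene (chromosome 5, 64803521 to 64832901, plus strand) had 4 R848 peaks and 1 untreated peak, which was shared. This peak over the start held 20 tags in R848 (64802908 to 64803684, fold 5.87) and 17 in untreated cells (64802902 to 64803587, fold 7.03). The tag ratio of 0.838 (0.417 to 1.70) was the lowest of the 15. The 3 R848-only peaks held 9, 9 and 7 tags, at 2801 bp inside the gene, 1496 bp past its end (the strongest, 64834283 to 64834504, fold 4.24) and 25857 bp past its end. The protein-coding gene Gm38457 (64802370 to 64809180) overlaps the Klf3 start, so the first of these and the shared peak are uncertain between both genes.

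Klf7, known for its roles in neurons and adipocytes, had 3 R848-only peaks and 5 untreated-only peaks. At a −log10 q cutoff of 5 the numbers were 2 and 0, but those 2 include the shared peak, whose untreated partner failed the cutoff. The gene lies on the minus strand of chromosome 1 (64029448 to 64122345). Its shared peak near the start had the strongest fold of any R848 peak at the 8 genes, 9.09 with 31 tags (64121454 to 64122076), against 5.36 with 11 tags in untreated cells (64121566 to 64121987). The tag ratio was 2.01 (0.982 to 4.43), and relative to the median of all shared pairs it was 2.11 (1.03 to 4.66). The lncRNA gene Gm35880 starts under this peak.

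The strongest R848-only peak of Klf7 was 69405 bp upstream (64191644 to 64191901) with 12 tags and a fold of 5.51, and the other 2 held 6 and 8 tags. An untreated-only peak of 7 tags lay beside the shared one, 79 bp from the gene end (64122226 to 64122456, fold 3.54) and 149 bp from the nearest R848 peak, and became shared when a gap of 500 bp was allowed. Of the remaining untreated-only peaks of Klf7 the strongest was 60065 bp upstream with 12 tags (64182253 to 64183063, fold 3.69), and the others held 5 or 6 tags.

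Klf9, a target of glucocorticoid and thyroid hormone receptors, had 4 peaks in each list, 2 of them shared. At its start (chromosome 19, gene 23141226 to 23168129, plus strand) the R848 peak held 23 tags (23140674 to 23141384, fold 8.33) and the untreated peak 11 (23140726 to 23141154, fold 6.06), a ratio of 1.49 (0.697 to 3.38). The other shared peak, about 6 kb upstream in the lncRNA gene 2410080I02Rik, held 10 and 5 tags. The R848-only peaks lay further upstream, with 9 tags at 6592 bp (23134544 to 23134743, fold 3.45) and 8 tags at 8196 bp. The untreated-only peaks held 6 tags each, 867 bp inside the gene (23142022 to 23142221, fold 3.43) and 58294 bp upstream (23082780 to 23082979, fold 3.56).

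Klf13, known as an activator of the chemokine gene Ccl5 in T cells, had 6 peaks in each list, 3 of them shared. The gene lies on the minus strand of chromosome 7 (63886351 to 63938915). At its start the R848 peak held 33 tags (63938741 to 63939306, fold 6.51) and the untreated peak 23 (63938942 to 63939358, fold 8.22). This was the strongest untreated peak among the shared ones, and its tag ratio was 1.02 (0.582 to 1.82). The shared peak 1.2 kb inside the gene held 20 tags in R848 and 13 in untreated cells, with folds of 4.04 and 4.83. The distal shared peak, 73 kb upstream within the lncRNA gene Gm32633, held 23 tags in R848 (64011672 to 64012179, fold 8.51) and 13 in untreated cells (64011778 to 64012258, fold 6.86).

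The R848-only peaks of Klf13 held 12, 12 and 7 tags. The strongest by fold lay inside the gene, 10752 bp from its lower end (63896844 to 63897247, fold 4.81), and another lay 687 bp upstream of the start (63939493 to 63939702, fold 2.52), 134 bp from an untreated peak. This second peak had a −log10 q of 0.70, and it became shared when a gap of 500 bp was allowed. The 3 untreated-only peaks held 5 tags each, and the strongest of them by fold had 3.05.

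As a group, the 15 shared pairs held 338 summit tags in R848 and 175 in untreated cells. Per background this is a pooled ratio of 1.38 (exact interval 1.14 to 1.66, counting error only), and the median ratio was 1.42. Over all 11814 shared pairs the pooled ratio was 0.932 and the median log2 ratio −0.07, against 0.51 for the members. The tag ratio was above 1 in 13 of 15 pairs, and in 46.0% of all shared pairs, but by the authors' fold values R848 was higher in 9 of 15 (58.6% of all pairs), with a median of 1.24. The pairs that turned were those at the Klf6 start, the Klf10 end and both proximal Klf13 sites. A tag ratio above 1 was common near genes: it was found in 73.2% of the 4755 shared pairs within 1 kb of a gene end and in 7 of the 8 members' pairs there. There the median log2 tag ratio was 0.53 for the members and 0.37 for all pairs, and the pooled ratios were 1.32 and 1.34. Over all 7059 pairs beyond 1 kb the pooled ratio was 0.717, and 27.7% had a ratio above 1. The members' pairs beyond 1 kb ran from 0.916 (inside Klf4) to 2.35 (inside Klf10), and they were not pooled. Within 1 kb the fold values differed from the tags. The authors' fold was higher in R848 in 4 of the members' 8 pairs within 1 kb, against 78.0% of all such pairs, with median log2 fold ratios of 0.20 and 0.38. A ratio of at least 2 was reached by 2 of the 15 pairs, at Klf10 and Klf7 (7.60% of all pairs). Relative to the median of all pairs it was also reached by 2 of 15 (9.81%), and a ratio of at most 0.5 by 0 of 15 (14.1%). On the fold scale 0 of 15 reached 2 (4.90%).

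**Figure D4:**
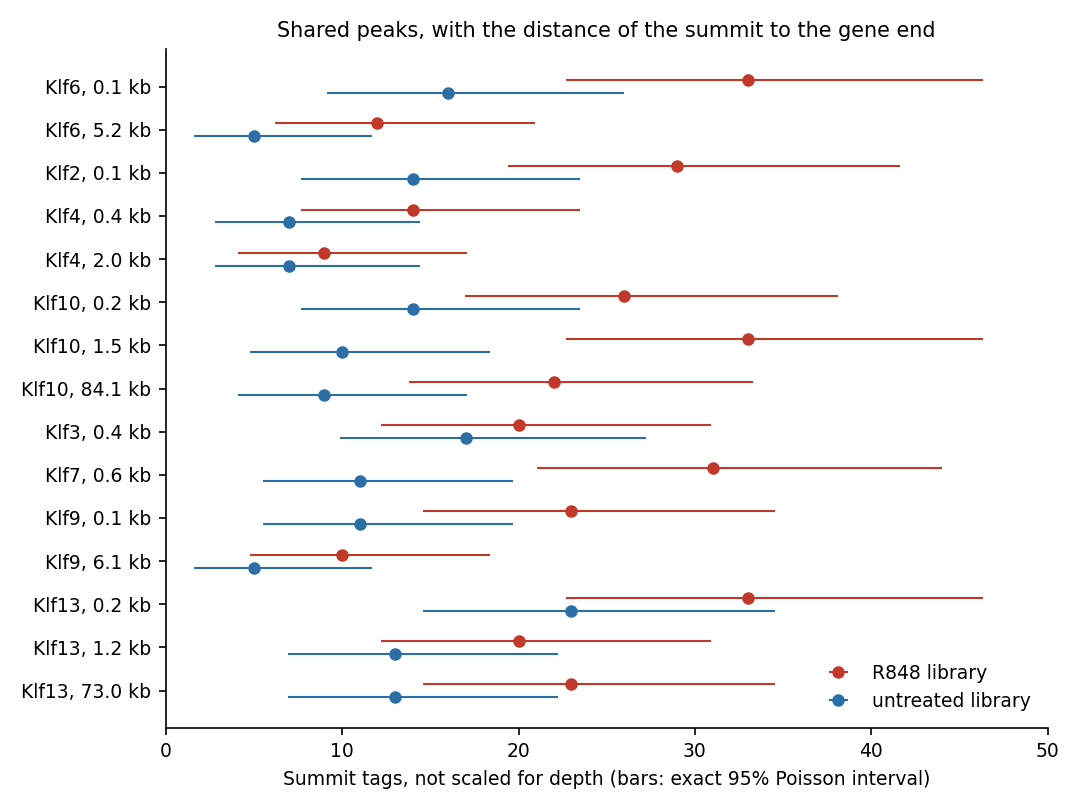
Summit tags (horizontal axis, not scaled for depth) of the 15 shared pairs in the R848 and the untreated library, each labelled with its gene and the distance of the R848 summit to the gene end; bars are exact 95% Poisson intervals. R848 tags are higher in all 15 pairs before scaling, by 33 against 10 at the inner Klf10 site and 9 against 7 at the inner Klf4 site.

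**Figure D5:**
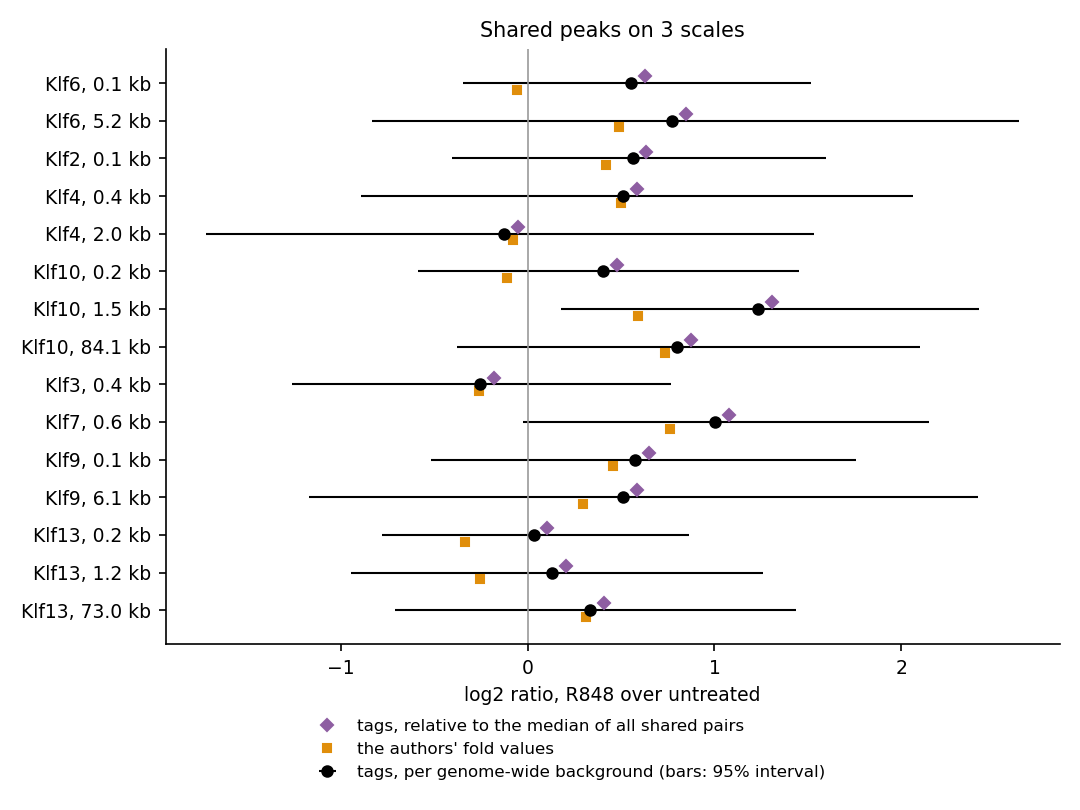
The log2 ratio of R848 over untreated (horizontal axis) for the same 15 pairs, as tags per genome-wide background with its 95% interval, as tags relative to the median of all shared pairs, and as the authors' fold values. The interval lies above 0 for the inner Klf10 site alone, and the fold values fall below 0 in 6 pairs.

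The factors and cofactors that work with these genes were counted in the same way, with no test, beside the 47.2% of all protein-coding genes with an R848-only peak and the 56.9% with an untreated-only peak. Of 9 other Krüppel-like factor genes 5 had an R848-only and 6 an untreated-only peak, with medians of 1 and 1 per gene, against 0 and 1 over all protein-coding genes. Klf5 and Klf12 had 3 R848-only peaks each and Klf15 had 2, and untreated-only peaks were most frequent at Klf12 (8) and Klf14 (6). Of the 9 Sp factor genes, whose products bind the same GC boxes, 5 had an R848-only and 4 an untreated-only peak, both near the shares over all genes. Sp4 and Sp8 had 3 R848-only peaks each and Sp1 had 2, and untreated-only peaks numbered 9 at Sp4 and 3 at Sp8.

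The ERK5 and MEF2 genes lie upstream of Klf2 and Klf4 in endothelial cells. An R848-only peak lay at 5 of 8 and an untreated-only peak at 5 of 8, led by Mef2c with 3 of the R848-only and 8 of the untreated-only peaks and Mef2a with 3 and 7. Mef2d had 2 R848-only peaks and Map2k5 had 2 untreated-only peaks. Of 13 cofactor genes, 7 had an R848-only peak, 1 in each case, and 9 had an untreated-only peak, with 8 at the acetyltransferase gene Kat2b and 7 each at the deacetylase gene Hdac3 and the ubiquitin ligase gene Wwp1. Both sets of counts lie near the shares over all protein-coding genes, 47.2% and 56.9%.

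Set beside families of early response factors, the 12 AP-1 and ATF genes had 22 R848-only and 6 untreated-only peaks, led by Atf3 with 5 R848-only and 2 untreated-only and by Fos and Batf3 with 3 R848-only each, and 19 of their 41 R848 peaks (46.3%) and 20 of their 26 untreated peaks (76.9%) were shared. The 7 EGR and NR4A genes had 7 R848-only and 15 untreated-only peaks, led by Egr2 with 3 R848-only and Nr4a2 with 7 untreated-only peaks, with 10 of 17 R848 peaks (58.8%) and 10 of 25 untreated peaks shared. For the 8 Krüppel-like factor genes the shared shares were 35.7% and 42.9%, beside 33.1% and 20.2% over all protein-coding genes. The mean protein-coding gene had 0.885 peaks found in the R848 list alone and 1.74 found in the untreated list alone. These means were 1.83 and 0.5 for the AP-1 and ATF genes and 1.0 and 2.14 for the EGR and NR4A genes. For the 8 Krüppel-like factor genes, which were chosen by such counts, they were 3.38 and 2.5. Whether the families differ was not tested. By its counts of R848-only, untreated-only and shared R848 peaks (11, 5 and 2), the gene most like Klf6 over these 2 lists was Cdyl2 with 10, 4 and 2 (Euclidean distance 1.41), followed at 2.24 by Peli2, Rgs3, Tmcc3 and Xxylt1.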

How the data were processed

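ATAC-seq peaks of 1 R848 and 1 untreated library were used as deposited. bcl2fastq 2.19, Bowtie2 2.2.6 and MACS2 2.2.7.1 on mm10 are listed without settings, per the submitters' processing notes; read totals and the handling of read filters, duplicates and the insertion shift are not given in the sources used here. A single list per library was deposited. Each deposited peak has a fold (a ratio of summit to local background), a −log10 p and −log10 q, and a score that was not used. The lowest deposited −log10 p was 2.01 in both lists.

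Summit tags were solved from the authors' fold, (tags + 1)/(background + 1), and the Poisson p-value within 0.1%, for 99.8% of R848 and 99.9% of untreated peaks. The background ratio of 1.40 stands for relative depth only where tags were extended to the same length in both, and a median of 8 and 7 tags per peak gives low precision. Intervals are exact 95% binomial or Poisson intervals and cover counting error only. Peaks were shared when they overlapped by at least 1 bp. Genes were 21887 protein-coding RefSeq genes (GRCm38.p6), whose table gives gene ends alone, so exon and intron were not told apart. Software was scipy 1.17.1, pandas 2.3.3, numpy 2.4.6 and matplotlib 3.10.9 under Python 3.11.15, and the steps were checked on simulated peaks.

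Of each member, the strongest R848-only, untreated-only and shared peak by fold and every peak within 1 kb of its end are given; of each gene list, genes were named from the 4 with the most R848-only and the 3 with the most untreated-only peaks, leaving out ties and most genes with 1 or 2. Members and lists were chosen with earlier results of these data known. The alternatives changed the q threshold, list length, overlap and gene assignment; leaving out Klf6 and using genes of every biotype were added after the data were seen. The 100 kb limit left out an untreated peak of 5 tags at 105861 bp from Klf4, and took in one of 6 tags at 95195 bp from Klf6.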

Additional observations from a re-analysis of the deposited data

How the results depend on the processing

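The R848-only count at the 8 genes, 27 as reported, was 15 at a q of 0.05, 7 at a −log10 q cutoff of 5, 13 with gene ends within 20 kb, 8 with genes of every biotype and 16 without Klf6. The untreated-only count, 20, was 3 at that cutoff of 5, 11 with lists of equal length, 7 within 20 kb, 13 with every gene within 50 kb and 7 with genes of every biotype. The shared share of R848 peaks (35.7%) was 52.9% with genes of every biotype, and that of untreated peaks (42.9%) was 70.0% at the cutoff of 5 and 65.0% within 20 kb. Fewer peaks enter under each of these settings. With 50% reciprocal overlap, a gap of up to 500 bp or the nearest transcription start, both counts were within 1.5 times of those reported and both shares within their intervals. R848-only peaks outnumbered untreated-only peaks under every setting listed here, but narrowly without Klf6 (16 and 15) and with genes of every biotype (8 and 7). With lists of equal length (29 and 11) only the untreated list was cut, so that setting could not lower the R848-only lead. In the q and list-length settings, however, a shared peak whose untreated partner dropped out counted as R848-only. At a q of 0.05 (15 and 14 peaks) these were the downstream Klf6 peak and the distal Klf9 peak. At the cutoff of 5 they were the peaks at the Klf4 and Klf7 starts and 2 Klf10 peaks. Without these peaks R848-only peaks would not lead at either cutoff. The median ratio of shared pairs stayed above 1 on the other 2 scales, with 1.24 from fold values. No paired analysis was possible because each group held 1 library, and none could be left out.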

Other observations

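The body of Klf13 held 3 more R848-only peaks that went to E030018B13Rik, a protein-coding gene nested within it (63916857 to 63920539 on chromosome 7). They held 10, 6 and 7 tags (63910865 to 63911581, 63919753 to 63920107 and 63924396 to 63924595), with folds of 3.90, 2.63 and 3.13. No untreated peak inside the body of any of the 8 genes went elsewhere.

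Beyond 100 kb, Klf4 had a shared peak 118730 bp away, with 13 tags in R848 (55651032 to 55651535, fold 5.47) and 8 in untreated cells (55651123 to 55651487, fold 4.57). Klf6 had an R848-only peak of 7 tags 135134 bp upstream (5726194 to 5726553) and an untreated-only peak of 4 tags 146653 bp upstream. Klf7 had untreated-only peaks of 7 tags at 114458 bp and of 5 tags at 141204 bp.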
